A study of Mus musculus with 2 samples.

Results

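The mitochondrial carrier genes of the Slc25a series were examined in RNA from pools of layer 5 pyramidal neurons, excitatory cells of a deep layer of the mouse cerebral cortex that send axons out of it. Members were taken by name: every protein-coding gene whose symbol begins with Slc25a, after matching of gene identifiers to symbols. This gave 47 of 21474 protein-coding genes and of 43346 gene identifiers in all. The rule itself uses names and no measured values, although the family was picked for description with earlier results of these data known.

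The data are 2 libraries of 1 group. Each pool held 50 cells, cut from tissue by laser capture, and its RNA was amplified by a Smart-seq type protocol without molecular identifiers. The mice were wild-type males aged 8 months, and the strain is named B6NCrl in one label and C57Bl5 or C57Bl6 in others. RNA longer than 200 nt was used, with synthetic spike-in RNAs added, and an antibody tag reads Control. The libraries are labelled biological replicates 1 and 2 but carry 1 and the same donor identifier. They may therefore stem from a single animal, and their spread may be technical. With 1 group there is no contrast between conditions, and no p-value is given.

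Carriers of this family are small proteins of the inner mitochondrial membrane that exchange one metabolite for another across it. They bring ADP and phosphate to ATP synthase and let ATP out, and they carry the amino acids, organic acids, nucleotides, cofactors and iron that enzymes of the matrix need. In neurons they are best known for supplying ATP at synapses and for the malate-aspartate shuttle, which passes reducing equivalents from glycolysis to the respiratory chain. A few members sit elsewhere, in the peroxisome or in the outer mitochondrial membrane.

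Replicate 1 held 24171434 estimated reads and replicate 2 held 27946180, of which spike-ins took 4.28% and 5.32%. Levels are given as TPM, a relative number of transcripts that is scaled by length and can be compared between genes within a library. The 6 neuronal markers were all detected, with summed levels of 8284 and 10272 TPM in replicates 1 and 2, and so were the 5 glutamatergic markers, at 569 and 761 TPM. Markers of other cells were present too. The 6 interneuron markers summed to 3345 and 1291 TPM, more than the glutamatergic markers in each library. Of the interneuron markers, Sst alone had 2506 and 844 TPM, and Vip had 153 TPM in replicate 1 and 0.03 TPM in replicate 2. By median, interneuron markers stood at 148 and 52.9 TPM and glutamatergic markers at 83.4 and 84.4 TPM, so the ranking by sum did not hold in replicate 2. Such sums mix genes of unlike level and do not rank amounts of RNA by cell type. The 6 astrocyte markers summed to 417 and 462 TPM, the 5 oligodendrocyte markers to 454 and 574 TPM, and the 5 microglial markers to 104 and 39.1 TPM. The 5 endothelial markers summed to 106 and 93.0 TPM, and the 5 erythroid markers to 7.59 and 384 TPM. No marker of these lists was without reads in every library. The pools are bulk samples, so fewer cells of a type and less RNA per cell cannot be told apart, and the levels below are those of the pools.

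The family was broadly present and strongly uneven. Of the 47 genes, 34 (72.3%) reached 1 TPM in each library, where 52.2% of protein-coding genes did. A mean of at least 10 TPM was reached by 22 members (46.8%), against 30.4% of protein-coding genes, and a mean of at least 100 TPM by 4 members (8.51%), against 5.95%. The median member had a level of 8.10 and 10.03 TPM in the libraries (9.07 ± 1.36, SD, n = 2), and the median protein-coding gene at 2.02 and 1.84 TPM (1.93 ± 0.13). Among genes that reached 1 TPM in each library the medians lay close together, at 15.09 and 16.01 TPM for members and 13.48 and 13.53 TPM for protein-coding genes. These shares and medians describe the family in these pools and carry no test. All members together summed to 2656 and 3221 TPM, which was 0.364% and 0.442% of the TPM of protein-coding genes.

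The genes for the last step of ATP supply, Slc25a4, Slc25a3 and Slc25a5, took most of that sum. They held 71.7% of the family's TPM in replicate 1 and 72.5% in replicate 2 (72.1% ± 0.53, SD, n = 2). The ADP/ATP exchange genes alone held 50.5% ± 0.65, and the phosphate carrier gene 21.6% ± 0.12. Each of the other groups held less: 7.50% ± 0.46 for nucleotides and cofactors (9 genes), 5.59% ± 0.28 for di- and tricarboxylates (4 genes), and 3.65% ± 0.43 for the relatives of the uncoupling proteins (3 genes). Iron and glutathione carriers (4 genes) held 3.26% ± 0.25, and aspartate and glutamate carriers (4 genes) 3.10% ± 0.0055. The lowest shares were those of the outer membrane and unassigned members (8 genes, 2.32% ± 0.25), the amino acid and carnitine carriers (7 genes, 1.73% ± 0.064) and the ATP-Mg/phosphate carriers (4 genes, 0.759% ± 0.014).

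**Figure D1:**
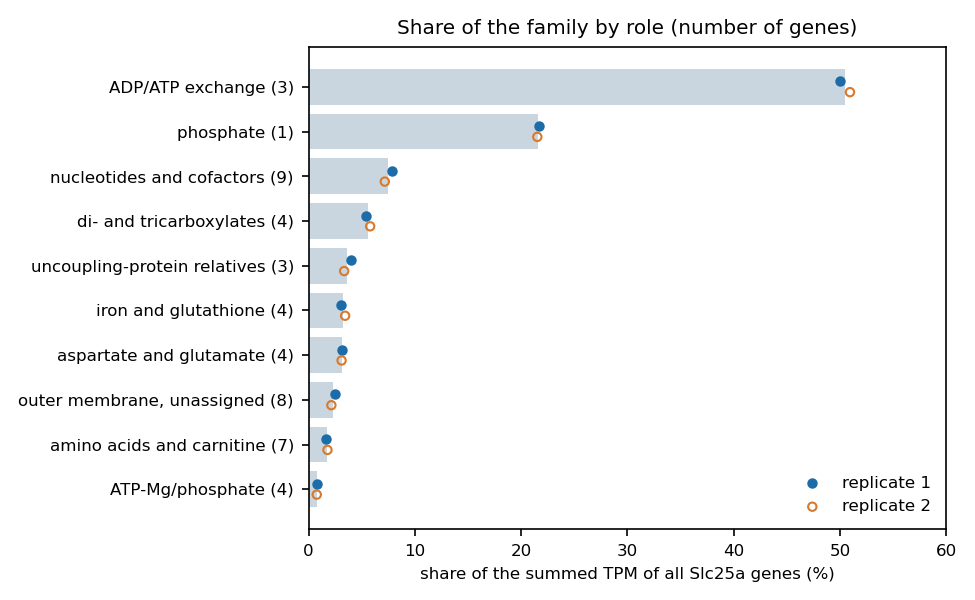
Share of the summed TPM of all Slc25a genes, in percent, held by each group of carriers, with the number of genes in brackets. Bars are means of the 2 libraries and points are the libraries. ADP/ATP exchange and phosphate lead with 50.5% and 21.6%, and no other group has a mean above 7.50%.

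Among the ADP/ATP translocator genes, the form known from heart, muscle and brain led. Slc25a4 (ENSMUSG00000031633.4, chr8:46206797-46211284, minus strand, GRCm38) stood at 798 and 1013 TPM in replicates 1 and 2 (906 ± 152, SD, n = 2), higher than 99.5% and 99.6% of protein-coding genes. Slc25a5 (ENSMUSG00000016319.3, chrX:36795651-36798807, plus strand), known as the form of dividing and many other cells, stood at 530 and 627 TPM (579 ± 69.1). The level of Slc25a4 was 1.51 and 1.61 times that of Slc25a5, a difference of 0.64 ± 0.07 on the log2(TPM + 1) scale, larger than its spread between the libraries. Slc25a31, the translocator of male germ cells, had no reads in either library, where 3 reads would have stood at 0.0983 and 0.0878 TPM. Sharing of reads with the annotated pseudogene Slc25a5-ps, at 0 and 0.05 TPM, was small by the deposited estimates.

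The phosphate carrier gene Slc25a3 (ENSMUSG00000061904.8, chr10:91116574-91124059, minus strand) stood at 576 and 693 TPM (635 ± 82.8, SD, n = 2), between the ADP/ATP translocator genes in each library. Its product brings inorganic phosphate into the matrix. The gene has a pair of alternative exons, spliced one in place of the other, of which the longer is known from heart and skeletal muscle and the shorter from most tissues. They are shown because transcript levels in replicate 1, the library for which a transcript table was used, were assigned to each. The exon is in capitals, between 15 bases of the neighbouring exons in lower case, read 5′ to 3′ along the minus strand from GRCm38 with the GENCODE M21 annotation. The longer exon has 125 bases (exon 3 of its transcript, chr10:91122207-91122331) and the shorter 122 bases (likewise exon 3, chr10:91121922-91122043), and each lies wholly within the coding sequence.
Slc25a3 longer exon: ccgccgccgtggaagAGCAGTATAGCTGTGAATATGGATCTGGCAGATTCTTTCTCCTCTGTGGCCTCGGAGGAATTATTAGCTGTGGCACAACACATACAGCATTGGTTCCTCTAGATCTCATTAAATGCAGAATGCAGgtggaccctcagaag
Slc25a3 shorter exon: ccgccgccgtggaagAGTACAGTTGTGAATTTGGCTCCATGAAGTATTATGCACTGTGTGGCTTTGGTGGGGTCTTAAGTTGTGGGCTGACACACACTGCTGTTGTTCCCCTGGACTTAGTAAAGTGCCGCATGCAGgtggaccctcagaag
Aligned to each other, the exons had 80 of 126 columns identical (63.5%). Transcripts with the longer exon held 29.9% of the gene's TPM (172 TPM, 4284 estimated reads) and those with the shorter exon 64.7% (373 TPM, 10666 estimated reads). The longer exon was in 1 coding transcript with reads and the shorter exon in 2, which held 41.5% and 23.2%. These transcripts also differ outside the exon, the leading one having a first exon of 398 bases. The deposited posterior SD, which measures how surely reads were assigned, was 218 reads for the transcript with the longer exon and 234 and 254 reads for those with the shorter one, each small beside the difference in reads between the exons. Only 1 library entered these transcript values, which therefore have no replicate error.

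The malate-aspartate shuttle runs through a carrier of oxoglutarate and one of aspartate, each with a gene among the higher members. Slc25a11, the oxoglutarate/malate carrier, stood at 117 and 154 TPM (135 ± 26.5, SD, n = 2) and was the only member besides the leading 3 above a mean of 100 TPM. Its partner in the shuttle, the aspartate/glutamate carrier gene Slc25a12 (ENSMUSG00000027010.12, chr2:71271063-71367749, minus strand), stood at 57.5 and 63.3 TPM (60.4 ± 4.12). Slc25a13, the paralog known mainly from liver, stood at 1.64 and 1.31 TPM. The level of Slc25a12 was thus 35.1 and 48.3 times that of Slc25a13, or 4.63 ± 0.23 on the log2(TPM + 1) scale. The enzymes of the shuttle were abundant alongside: the malate dehydrogenase genes Mdh1, at 1615 and 1827 TPM, and Mdh2, at 594 and 643 TPM, and the aspartate aminotransferase gene Got1, at 350 and 396 TPM, led a list of 6 enzymes of this and the glycerol phosphate shuttle, all of them detected.

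Much of the Slc25a12 level was assigned to a transcript that the annotation does not count as coding. In replicate 1 a transcript annotated as a target of nonsense-mediated decay held 67.35% of the gene's TPM (38.7 TPM) and 56.0% of its estimated reads (1776, posterior SD 39.1). The full-length coding transcript held 18.1% of the TPM (10.4 TPM) and 41.1% of the reads (1304, posterior SD 27.6). TPM divides reads by length, and these transcripts have 2392 and 6351 bases. The decay-annotated transcript lacks exon 4, of 116 bases (chr2:71333605-71333720), a length that leaves a remainder of 2 when divided by 3, and it ends in a last exon of 664 bases where the coding transcript has 4291. The exon is shown in capitals between 15 bases of its neighbours, followed by the junction of the decay-annotated transcript, where lower case marks the end of the exon before the skip and capitals the start of the exon after it.
Slc25a12 exon 4: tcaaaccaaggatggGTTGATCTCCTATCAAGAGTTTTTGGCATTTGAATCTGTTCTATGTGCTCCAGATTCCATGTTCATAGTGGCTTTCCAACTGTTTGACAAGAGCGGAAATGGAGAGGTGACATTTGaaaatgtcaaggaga
Slc25a12 junction without exon 4: tcaaaccaaggatggAAAATGTCAAGGAGA
Which of these differences carried the assigned reads was not tested, since no read positions were used. Counting TPM of protein-coding transcripts alone in replicate 1, a choice made after the data were seen, gave a lead of Slc25a12 over Slc25a13 of 2.70 in place of 4.47 on the log2(TPM + 1) scale. For Slc25a13 itself a retained-intron transcript led by TPM with 53.2%, and coding transcripts held 46.6%. By estimated reads it did not lead: it held 25.8% of the reads of the gene, and the coding transcripts 50.8% and 23.4%. Its length was 1018 bases in the transcript levels used but 616 in the annotation that gave its type. The lead of 2.70 thus rests in part on a low and uncertain coding level of Slc25a13.

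**Figure D2:**
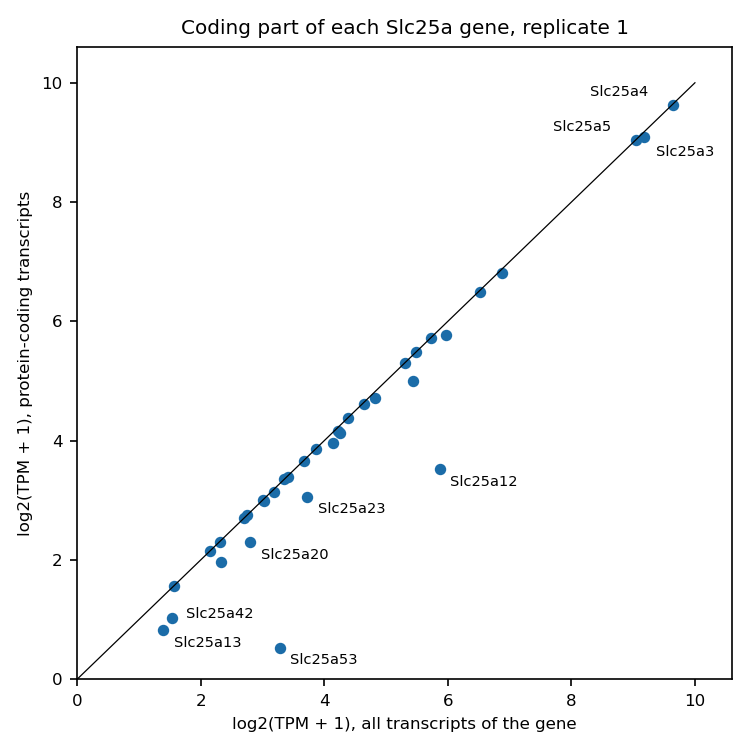
For each Slc25a gene at a mean of at least 1 TPM, the log2(TPM + 1) of its protein-coding transcripts (vertical) against that of all its transcripts (horizontal) in replicate 1. Points on the line have only coding transcripts. Slc25a12 lies far below it, with 10.4 TPM on its coding transcript, and so does Slc25a53.

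Most other carriers were measured on coding transcripts. Of the 22 members at a mean of at least 10 TPM, 21 had a protein-coding leading transcript, 19 had at least 80% of their TPM on coding transcripts, and the median was 97.8%. Besides Slc25a3, a leading share under 50% was seen for Slc25a36 (36.1%), Slc25a44 (39.3%) and Slc25a22 (34.75%). Every transcript of Slc25a44 with reads was annotated as coding, with 39.3%, 27.6%, 22.7% and 10.3% of the TPM on 4 of them. The leading transcript of Slc25a22 was 402 bases long and rested on 37.1 estimated reads, while a transcript of 2556 bases held 33.7% of the TPM on 291 reads, or 51.7% of the reads of the gene. Below 10 TPM, Slc25a53 had 5.05% of its TPM on coding transcripts, a member singled out after its value was seen.

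The glutamate carriers, which bring glutamate into the matrix with a proton, were present at lower levels. Slc25a22 stood at 17.6 and 22.8 TPM (20.2 ± 3.64, SD, n = 2). Slc25a18, the paralog known from astrocytes, stood at 5.52 and 12.6 TPM (9.08 ± 5.03). The difference between them was 1.51 and 0.80 on the log2(TPM + 1) scale (1.16 ± 0.50), so Slc25a22 was the higher in each library but by an uncertain margin. In their group, 2 of 4 genes passed a mean of 10 TPM and all 4 were detected in each library.

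Carriers of citric acid cycle intermediates were led by Slc25a11. Slc25a1, the citrate carrier, stood at 18 and 23.2 TPM (20.6 ± 3.64, SD, n = 2), and Slc25a10, the dicarboxylate carrier, at 8.10 and 9.25 TPM. Slc25a21, a carrier of oxodicarboxylates, had 16 reads in replicate 1 (0.47 TPM) and none in replicate 2, where 3 reads would have stood at 0.0923 TPM. The pyruvate carrier, which belongs to another protein family, stood higher than any of these per length, with Mpc1 at 988 and 1003 TPM and Mpc2 at 626 and 631 TPM.

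Of the relatives of the uncoupling proteins, the pair known from brain was detected in each library, and Slc25a30, known from kidney, lay under 1 TPM. Slc25a14 stood at 90.9 and 94.3 TPM (92.6 ± 2.39, SD, n = 2), rank 5 in the family. Slc25a27 stood at 13.5 TPM in each library, and Slc25a30 at 0.75 and 0.11 TPM from 24 and 4 reads. The differences were 2.69 ± 0.04 between Slc25a14 and Slc25a27 and 6.07 ± 0.50 between Slc25a14 and Slc25a30, on the log2(TPM + 1) scale. The uncoupling proteins themselves carry other symbols: Ucp2 stood at 5.34 and 3.40 TPM, Ucp1 at 0.55 and 0 TPM and Ucp3 at 0 and 0.12 TPM. Mtch1 and Mtch2, outer membrane proteins of the same fold, were higher, at 212 and 250 TPM and at 204 and 235 TPM.

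The carriers of nucleotides and cofactors were all found, with 9 of 9 genes detected in each library and 7 above a mean of 10 TPM. The pyrimidine nucleotide carriers Slc25a33 and Slc25a36 stood at 43.6 and 55.4 TPM (49.5 ± 8.34, SD, n = 2) and at 42.4 and 47.2 TPM (44.8 ± 3.39). Slc25a17, the peroxisomal carrier of coenzyme A and other cofactors, stood at 38.6 and 44.1 TPM. These were followed by Slc25a16, at 23.9 and 17.9 TPM, the NAD carrier Slc25a51, at 16.6 and 15.95 TPM, and the S-adenosylmethionine carrier Slc25a26, at 11.7 and 9.74 TPM. The lowest were Slc25a32, which carries folate, with 1.95 and 3.83 TPM, and Slc25a42, which carries coenzyme A, with 1.88 and 2.22 TPM.

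Among iron and glutathione carriers, 1 gene of each paralog pair led. Slc25a39, a glutathione carrier, stood at 61.8 and 83.3 TPM (72.6 ± 15.2, SD, n = 2), and its paralog Slc25a40 at 9.18 and 10.95 TPM, a difference of 2.72 ± 0.14 on the log2(TPM + 1) scale. The mitoferrin genes, which serve iron import, were closer: Slc25a28, the widely expressed form, stood at 7.03 and 10.51 TPM and Slc25a37, known from red cell precursors, at 4.03 and 5.97 TPM. They differed by 0.70 ± 0.03, with Slc25a28 the higher in each library. Slc25a38, a glycine carrier needed for haem synthesis, stood at 9.67 and 16.1 TPM (12.9 ± 4.53). Erythroid markers moved in the same direction as Slc25a37 and Slc25a38, 4 of 5 of them being higher in replicate 2 (7.59 and 384 TPM in sum) and none at 0, and their part in these values was not tested. That direction was not particular to these carriers. In the main comparison of the libraries below, 23 of 28 carriers were higher in replicate 2, against 52.7% of all genes.

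The ATP-Mg/phosphate carriers, which adjust the adenine nucleotide pool of the matrix and most of which calcium regulates, were low. Slc25a23 stood at 12.2 and 14.4 TPM (13.3 ± 1.55, SD, n = 2) and Slc25a25 at 7.11 and 10.03 TPM (8.57 ± 2.06), a difference of 0.59 ± 0.16 on the log2(TPM + 1) scale. On protein-coding transcripts alone, looked at in replicate 1 after the data were seen, their levels were close. Slc25a23 had 7.34 TPM there (60.2% of the gene) and Slc25a25 had 6.89 TPM (96.8%). A retained-intron transcript held 39.8% of the TPM of Slc25a23. Slc25a24 stood at 0.59 and 0.35 TPM, and Slc25a41 had no reads in either library, where 3 reads would have stood at 0.136 and 0.122 TPM. Genes of calcium transport at the inner membrane and of its regulation ranged more widely. In a list of 8, 6 were detected in each library, led by Smdt1, a small subunit of the uniporter, at 391 and 382 TPM. The others were Mcub, at 0.65 and 0.99 TPM, and Slc8b1, at 0 and 0.03 TPM. The gatekeeper gene Micu3 had 223 and 226 TPM.

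Of the amino acid and carnitine carriers, 4 of 7 genes were detected in each library. Slc25a44, a carrier of branched-chain amino acids, stood at 19.9 and 26.7 TPM (23.3 ± 4.86, SD, n = 2), above Slc25a38. Slc25a29, which carries basic amino acids, stood at 5.75 and 8.68 TPM, and the carnitine/acylcarnitine carrier Slc25a20 at 5.97 and 4.84 TPM. The ornithine carrier gene Slc25a15 stood at 3.45 and 0.88 TPM, while its paralog Slc25a2 had no reads, with a limit of 0.118 and 0.105 TPM for 3 reads. Slc25a48 had 3 reads in replicate 1 and none in replicate 2.

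Slc25a46, an outer membrane member that takes part in the shaping of mitochondria, led the last group with 51.8 and 57.2 TPM (54.5 ± 3.82, SD, n = 2). Slc25a53 stood at 8.70 and 8.27 TPM and Slc25a35 at 3.94 and 1.84 TPM. For Slc25a35, 31.3% of the exonic bases overlap Rangrf, a gene on the other strand at 32.7 and 37.8 TPM, and whether counting used strand is not stated in the labels or headers, which leaves its level uncertain. Slc25a43, Slc25a45, Slc25a47 and Slc25a34 lay under 1 TPM in each library, and Slc25a54 had no reads, with a limit of 0.1002 and 0.0895 TPM for 3 reads. In all, 4 members (8.51%) were without reads in either library, against 26.5% of protein-coding genes, 8 had reads but a mean under 1 TPM, resting on 0 to 34 reads per library, and 13 had a mean of 1 to 10 TPM.

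**Figure D3:**
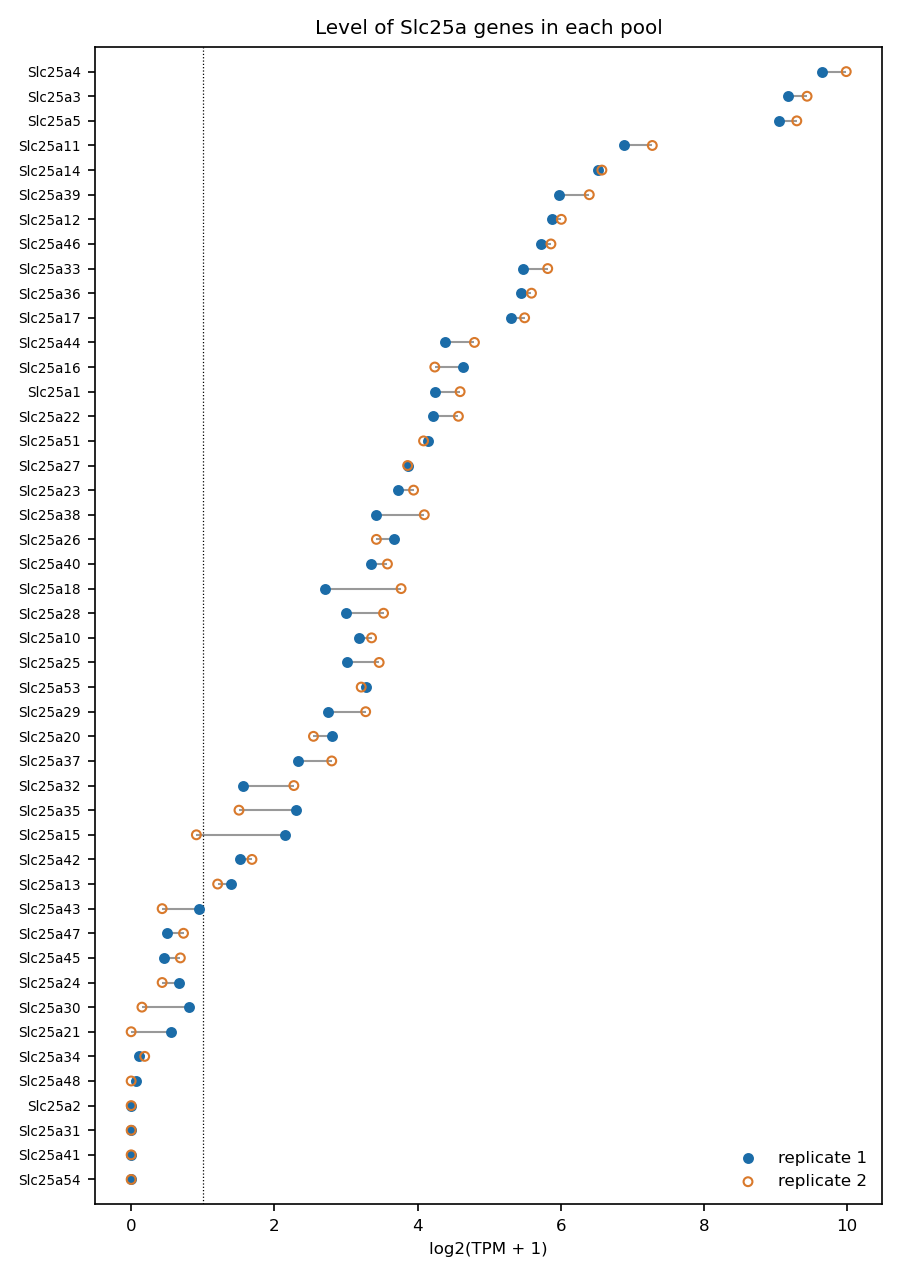
Level of Slc25a genes in replicate 1 (filled) and replicate 2 (open), as log2(TPM + 1), ordered by mean TPM. The dotted line marks 1 TPM. Slc25a4, Slc25a3 and Slc25a5 stand clear of the rest, and the last 4 genes have no reads.

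The order of the levels was similar in the 2 libraries. Across the 47 members, the log2(TPM + 1) values of the libraries had Pearson's r of 0.989 and Spearman's rho of 0.983, beside 0.981 and 0.964 across protein-coding genes. These correlations are across genes, which are not independent replicates and share length and base composition. Of the 21 neighbouring pairs in the order of the 22 members at a mean of at least 10 TPM, 14 differed by more than the SD of their difference over the libraries and 7 did not. All neighbouring pairs from Slc25a4 down to Slc25a44 were among the former, although the difference between Slc25a33 and Slc25a36 equalled its SD at 2 decimals (0.13 ± 0.13). The pairs within their SD lay lower: Slc25a44 with Slc25a16, Slc25a16 with Slc25a1, Slc25a22 with Slc25a51, and each neighbouring pair from Slc25a27 through Slc25a23, Slc25a38 and Slc25a26 to Slc25a40. This comparison describes the order and is no test of it. The same 2 libraries set the order and gave the SD, which is imprecise from 2 values. A pair as close as Slc25a1 and Slc25a22 (0.027 ± 0.0047) passed it, and counting error was not included.

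Compared between the libraries, no carrier gene at a mean of at least 10 CPM, reads scaled to a common library size, differed 2-fold. Of the 28 members above that level, 0 lay beyond 2-fold on the log2(CPM + 1) scale after TMM scaling in edgeR, where 4.47% of 9189 genes did. The log2 ratios of replicate 1 to replicate 2 ran from -0.68 for Slc25a38 to 0.37 for Slc25a16. Their median size was 0.30, beside 0.26 for all genes. With TMM scaling 23 of the 28 were higher in replicate 2, against 52.7% of all genes, with a median log2 ratio of -0.26 beside -0.02, but with scaling by spike-ins 9 of the 28 were, against 19.6%, and the medians were 0.09 and 0.33. With that scaling too 0 of the 28 lay beyond 2-fold, where 7.21% of genes did. The direction thus flips with the scaling. A scaling shifts all genes nearly alike, so the members' median lay below that of all genes in either case. Neuronal and glutamatergic marker sums were also higher in replicate 2, with 5 of 6 and 4 of 5 genes higher there in TPM, and interneuron and microglial markers were higher in replicate 1, with 0 of 6 and 0 of 5 genes higher in replicate 2. Their part in the carriers' ratios was not tested.

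At the lower limit of a mean of 1 CPM, 2 of 36 members lay beyond 2-fold, beside 10.4% of 14332 genes, 1 in each direction (6.46% of genes were higher in replicate 1 and 3.91% in replicate 2 by that fold). At any size, 27 of the 36 were higher in replicate 2, beside 50.2% of genes. The ornithine carrier gene Slc25a15 had 231 estimated reads in replicate 1 and 66 in replicate 2, a ratio of 3.92 (95% exact interval 2.97 to 5.24) and a log2 ratio of 1.63. Slc25a18, at a mean of 9.85 CPM just under the higher limit, had 140 and 359 reads, a ratio of replicate 2 to replicate 1 of 2.29 (1.88 to 2.80) and a log2 ratio of -1.07. The intervals treat each read as independent, which reads without molecular identifiers are not, so they are likely too narrow even for counting error. They cover no other error, and both genes were picked because they passed 2-fold. Of the 6 astrocyte markers, 3 were higher in replicate 2 in TPM, among them Aldoc at 272 and 326 TPM and Slc1a2 at 69.9 and 79.1 TPM, while Gja1 stood at 21.6 and 14.1 TPM and Aqp4 at 6.23 and 3.58 TPM. None of the 6 was at 0, and their part in the Slc25a18 value was not tested. Slc25a18 shares 32 exonic bases (1.67%) with Atp6v1e1 on the other strand, a proton pump gene at 777 and 794 TPM.

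**Figure D4:**
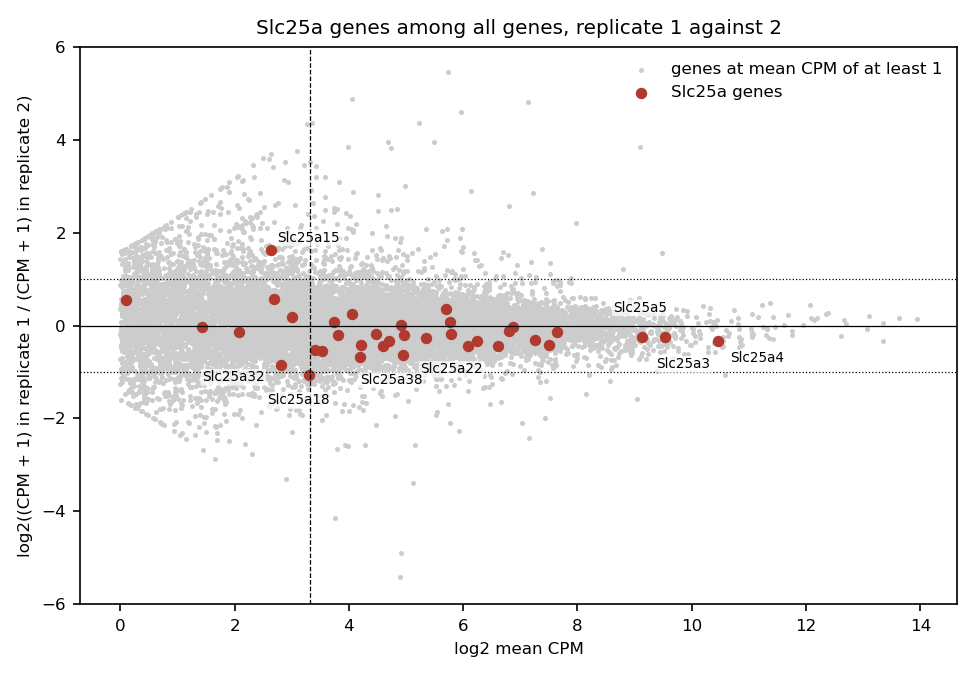
Log2 ratio of CPM + 1 in replicate 1 to replicate 2, with TMM scaling, against the log2 of mean CPM, for all genes at a mean of at least 1 CPM (grey) and the 36 Slc25a genes among them (red). Dotted lines mark 2-fold and the dashed line a mean of 10 CPM, to the right of which no Slc25a gene passes 2-fold; 3 other genes lie beyond the vertical range of 6.

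Carrier proteins are made in the cytosol and inserted into the inner membrane by import complexes. All 13 listed genes of carrier import reached 1 TPM in each library, and their medians were 80.4 and 79.8 TPM. Timm8b, Timm13 and Tomm22, which chaperone or receive precursors on their way in, led with 896 and 847 TPM, 228 and 221 TPM, and 218 and 207.2 TPM. The voltage-dependent channel genes, whose products let metabolites through the outer membrane, stood at 374 and 400 TPM for Vdac3, 283 and 340 TPM for Vdac1 and 237 and 303 TPM for Vdac2. In these lists no gene at a mean of at least 10 CPM differed 2-fold between the libraries, and among the shuttle enzymes 1 of 6 did. That 1 was Gpd2, of the glycerol phosphate shuttle, at 35.2 and 15.9 TPM, named after its value was seen. Over all genes at that level the share was 4.47% of 9189, so counts from lists this short say little about them.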

How the data were processed

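The authors deposited 1 gene table per library. It holds an expected count (reads as estimated by the quantifier, not normalized) and TPM and FPKM, which the authors scaled by length and depth. A transcript table was used for replicate 1, where a deposited percent states how much of the TPM of a gene each transcript holds. A posterior SD accompanies each count, per the file headers. The accompanying text files name transcriptome alignments on mm10 with GENCODE M4. Which aligner and quantifier were used, and whether strand was, is not given in the sources used here.

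GENCODE M21, on the same build (GRCm38), gave symbols, biotypes and coordinates by identifier without version: 42462 of 43346 matched. Of the members' 211 transcripts, 189 had the same length there. The 96 spike-ins and 26248 entries with numeric identifiers were left out of library sizes. Depth was 23137724 and 26460514 estimated reads on genes. The largest posterior SD was 0.207% of the count among members at a mean of at least 10 TPM, and 3.15% among those at 1 or more, for Slc25a35.

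The counts were rounded to integers for TMM scaling (edgeR 4.0.16, R 4.3.3) and for DESeq2 1.42.0 size factors, an alternative. Other values used Python 3.11.15, pandas 2.3.3, numpy 2.4.6 and scipy 1.17.1, with a pseudocount of 1, a detection limit of 1 TPM and a floor of 3 reads per library. The 2-fold rule was run on simulated Poisson counts with 200 genes changed 4-fold, without TMM scaling and without amplification noise. That run checks the code and does not measure the error of the rule in these pools. Members, roles and lists were chosen with earlier results of these data known. Named with values were members at a mean of at least 10 TPM, paralogs compared, members beyond 2-fold or without reads, and the 3 highest genes of each related list. The other members are accounted for by value or by count, except that not every gene this rule picks is reported here. A planned comparison of protein sequences was not run. Promoter windows came from RefSeq on GRCm38.p6.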

Additional observations from a re-analysis of the deposited data

How the results depend on the processing

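The number of carriers detected in each library, 34, was 28 to 38 under 4 other limits or scalings and 34 and 35 when either library was left out. The median of 9.07 TPM became 13.6 with TPM rescaled over protein-coding nuclear genes, 7.37 as FPKM, and 14.7 over members at a mean of at least 1 TPM. For protein-coding transcripts of replicate 1 it was 7.03, beside 8.10 for all transcripts in that library. The share held by Slc25a3, Slc25a4 and Slc25a5, 72.1%, became 64.0% of expected counts, which are not per length. On protein-coding transcripts of replicate 1 the share was 74.1%, beside 71.7% for all transcripts in that library. The log2 difference of Slc25a4 over Slc25a5 became 1.32 as CPM from expected counts. That of Slc25a12 over Slc25a13 became 5.27 with a pseudocount of 0.1 and 5.37 as CPM from expected counts. On protein-coding transcripts of replicate 1 it was 2.70, beside 4.47 for all transcripts in that library. The count of carriers beyond 2-fold, 0, remained 0 with DESeq2 size factors, unscaled totals, spike-in totals, TPM and a pseudocount of 0.1, and became 2 with a minimum mean of 1 CPM and 2 with no filter. The differences of Slc25a4 over Slc25a5, Slc25a12 over Slc25a13 and Slc25a22 over Slc25a18 kept their sign under the alternatives run for them, and the last moved by less than its SD. Other gene pairs were not rerun. The median log2 ratio of carriers between the libraries did change sign, from -0.26 with TMM to 0.09 with spike-in totals. Alternatives on protein-coding transcripts were chosen after seeing the data. With 2 libraries, leaving one out gives the other's value, which lies within 1 SD of the mean by construction, so it says nothing about stability. No paired analysis was possible because there is 1 group. Depth limits the members under 1 TPM, which rest on 0 to 34 reads per library.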

Other observations

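Some carrier genes lie near each other on a chromosome, and their levels are given without a comparison to neighbours outside the family. Slc25a29 and Slc25a47 on chromosome 12 lie 162 bases apart on opposite strands with 5.75 and 8.68 TPM in replicates 1 and 2 for the former and 0.41 and 0.66 TPM for the latter. Slc25a41, without reads, lies 2056 bases from Slc25a23 on chromosome 17, at 12.2 and 14.4 TPM. Slc25a54, also without reads, lies 6461 bases from Slc25a24 on chromosome 3, at 0.59 and 0.35 TPM, so both were under the detection limit of 1 TPM. Slc25a43, at 0.92 and 0.35 TPM, lies 18448 bases from Slc25a5 on chromosome X, at 530 and 627 TPM. These are all the pairs of members within 50000 bases of each other.

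Of the 47 members, 36 had a promoter window of 300 bases (250 before to 50 after the start) in RefSeq. A gene with several starts was counted by its window with the most CpG dinucleotides, and by any window for the letter searches. The median number of CpG dinucleotides was 18.5 in these members, 24 in 16 members at a mean of at least 10 TPM and 12.5 in 10 members under 1 TPM, beside 15 over 17491 protein-coding genes. The letters CCAAT, searched on both strands, were found in 19 of 36 members (52.8%), beside 42.3% of the protein-coding genes. The letters TATAAA, searched likewise, were in 2 of 36 (5.56%), beside 14.8%. These counts describe the windows and were not tested.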
